A study of Heterocephalus glaber with 2 samples.

Results

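The genes described here encode the proteins of the cytosolic ribosome in skin fibroblasts of the naked mole-rat (NMR), a long-lived rodent. They were chosen by name alone: every entry whose symbol was Rpl or Rps followed by a number, together with *Rpsa*, *Rplp0*, *Rplp1* and *Rplp2*, without the Rps6k kinases and without symbols that end in -ps. This rule took 81 of the 37520 entries of the deposited data, 49 of the large subunit and 32 of the small subunit. Of the 81, 73 encode core ribosomal proteins (43 large, 30 small) and 7 encode paralogs of core proteins. *Rps19bp1*, which encodes a protein that binds Rps19, matched the rule by its name only.

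RNA was sequenced from 2 cultures of primary NMR skin fibroblasts (NSFs), each transduced with a pLKO1 lentivirus and kept in puromycin. *shβ-catenin* NSFs carried hairpin #1 against *β-catenin*, and *shControl* NSFs carried the empty vector and hence no hairpin. There is 1 library per condition, so no difference below has a replicate check, a standard deviation or a p-value, and each is a comparison of these 2 libraries. Levels are FPKM, fragment counts divided by the length of the transcript and by the library's mapped fragments. Division by length makes genes more comparable, but its accuracy for the shortest mRNAs was not tested.

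A ribosome is built from a small subunit, which binds the mRNA and reads its codons, and a large subunit, which joins the amino acids. Each subunit is made of folded ribosomal RNA covered by many small proteins. Most of these proteins are present as a single copy, so cells make them in nearly equal numbers. Their mRNAs are among the most abundant of a growing cell and start with a terminal oligopyrimidine (TOP) tract, through which the kinase mTOR and the RNA-binding protein LARP1 control their translation and stability.

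The targeted gene, *Ctnnb1*, stood at 69.0 FPKM in *shβ-catenin* cells and 530 FPKM in *shControl* cells, a log2 difference of −2.94, and was thus lower in the library labelled as the knockdown. All 12 fibroblast markers examined were detected, with summed levels of 7323 FPKM in *shβ-catenin* cells and 8455 FPKM in *shControl* cells. Of the 10 whose mean reached 1 FPKM, 7 were lower in *shβ-catenin* cells, beside 51.3% of all genes. *Dcn*, a defining marker, was at only 2.42 FPKM in *shβ-catenin* cells and 0.316 FPKM in *shControl* cells. Summed keratinocyte markers were at 0.185 FPKM in *shβ-catenin* cells and 0.0462 FPKM in *shControl* cells, with *Krt5* and *Krt1* at 0. Summed leukocyte markers were at 1.56 FPKM in *shβ-catenin* cells and 1.65 FPKM in *shControl* cells, with *Ptprc* and *Cd3e* at 0. Endothelial markers summed to 2.42 FPKM in *shβ-catenin* cells and 0.342 FPKM in *shControl* cells, and melanocyte markers to 15.0 FPKM in *shβ-catenin* cells and 10.4 FPKM in *shControl* cells. The part of these markers in the values below was not tested, and in bulk RNA a change in the number of cells of a type and a change in RNA per cell cannot be told apart.

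Ribosomal protein mRNAs took a large share of both transcriptomes. The 81 genes summed to 100729 FPKM in *shβ-catenin* cells and 97337 FPKM in *shControl* cells, which was 17.0% of all FPKM in *shβ-catenin* cells and 16.0% in *shControl* cells. The large subunit made up 9.12% in *shβ-catenin* cells and 8.53% in *shControl* cells, and the small subunit 7.90% in *shβ-catenin* cells and 7.43% in *shControl* cells. Of the 100 genes with the highest mean level, 51 were ribosomal protein genes, and 74 were among the first 200. The share depends on the rest of the library. The 13 protein genes of the mitochondrial genome held 7.38% of the *shβ-catenin* sum and 9.26% of the *shControl* sum. Without them the ribosomal proteins made up 18.4% of the *shβ-catenin* sum and 17.6% of the *shControl* sum.

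Most core genes were expressed within a narrow band. Of the 73 core genes, 70 were at 500 FPKM or more in both libraries. The median core gene was at 1239 FPKM in *shβ-catenin* cells and 1142 FPKM in *shControl* cells, with an interquartile range of 939 to 1592 FPKM in *shβ-catenin* cells and 901 to 1593 FPKM in *shControl* cells. The lowest was *Rpl22*, which encodes an RNA-binding protein of the large subunit that is needed for T cell development in mice, at 164 FPKM in *shβ-catenin* cells and 147 FPKM in *shControl* cells. The highest was *Rps27*, a zinc-binding protein of the small subunit, at 4778 FPKM in *shβ-catenin* cells and 4226 FPKM in *shControl* cells. Highest and lowest thus stood 29.2-fold apart in *shβ-catenin* cells and 28.7-fold apart in *shControl* cells. The order of the core genes was much alike in both libraries, with a Spearman coefficient of 0.97 across the 73 genes, which share their libraries and are not replicates.

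**Figure D1:**
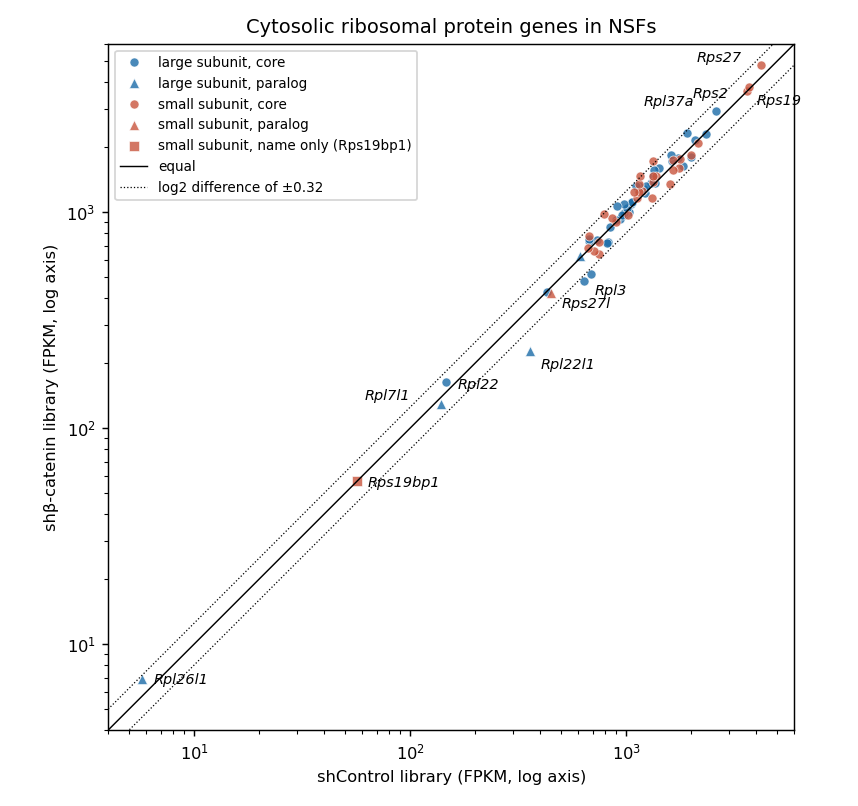
FPKM of each ribosomal protein gene in the *shβ-catenin* library (vertical, log axis) against the *shControl* library (horizontal, log axis), with 1 point per gene, the line of equality and dotted lines at a log2 difference of 0.32 in either direction. Most core genes crowd above 500 FPKM near equality, *Rpl22l1* lies at 227 against 359 FPKM below the dotted line, and *Rpl3l* and *Rpl10l* are not drawn.

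The most abundant mRNAs of the small subunit after *Rps27* were *Rps19*, the gene most often mutated in Diamond-Blackfan anaemia, and *Rps2*, which lines the entry of the mRNA channel. *Rps19* was listed at 3783 FPKM in *shβ-catenin* cells and 3705 FPKM in *shControl* cells. *Rps2* was listed at 3641 FPKM in *shβ-catenin* cells and 3633 FPKM in *shControl* cells. Their log2 differences were 0.03 and 0.0034, so these very abundant mRNAs hardly differed between the libraries. *Rps15a*, a protein bound to the body of the subunit, was at 2081 FPKM in *shβ-catenin* cells and 2162 FPKM in *shControl* cells, and *Rps12*, a protein of the beak, was at 1843 FPKM in *shβ-catenin* cells and 1991 FPKM in *shControl* cells.

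In the large subunit the most abundant mRNA was *Rpl37a*, a zinc-binding protein, at 2925 FPKM in *shβ-catenin* cells and 2606 FPKM in *shControl* cells. *Rpl26*, which sits at the exit of the tunnel through which the new protein leaves, was at 2325 FPKM in *shβ-catenin* cells and 1906 FPKM in *shControl* cells. *Rpl7* was at 2291 FPKM in *shβ-catenin* cells and 2347 FPKM in *shControl* cells. *Rpl13a*, which in human monocytes can leave the ribosome and silence inflammatory mRNAs, was at 2163 FPKM in *shβ-catenin* cells and 2073 FPKM in *shControl* cells. *Rpl38*, a small protein through which mouse embryos translate Hox mRNAs, was at 1806 FPKM in *shβ-catenin* cells and 1998 FPKM in *shControl* cells. *Rpl37a*, *Rpl26* and *Rpl13a* were thus higher in *shβ-catenin* cells, and *Rpl7* and *Rpl38* lower.

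Differences between the libraries were small and more often upward. Log2 differences were computed as the log2 of (*shβ-catenin* + 0.1) / (*shControl* + 0.1), which understates differences of low genes, for genes whose mean reached 1 FPKM. This filter kept 79 of the 81 ribosomal protein genes and 13097 genes in all. Of the 79, 52 were higher in *shβ-catenin* cells, beside 48.7% of all genes, and 27 were lower, beside 51.3% of all genes. Their median log2 difference was 0.04, and that of all genes −0.01. The interquartile range of the ribosomal protein genes was −0.03 to 0.15, and that of all genes −0.24 to 0.21. The split depends on how the libraries are scaled: 61 of the 79 (77.2%) were higher, beside 53.9% of all genes, when both libraries were set to the same FPKM sum, a scaling chosen after the data were seen that moves every log2 difference by 0.04.

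The ribosomal protein genes kept closer together than genes at large. By more than 0.32 on the log2 scale, 2 were higher and 3 lower in the *shβ-catenin* library, 5 of 79 in all, beside 17.5% of all genes higher, 18.2% lower and 35.7% in either direction. Other highly expressed genes are a closer match in level. Of 798 such genes with means of 100 FPKM or more, 27.6% differed by more than 0.32 on the log2 scale, 40.5% were higher, and the median was −0.06. Their median level was still far lower, at 168 FPKM in *shβ-catenin* cells and 170 FPKM in *shControl* cells. That of the 79 was 1168 FPKM in *shβ-catenin* cells and 1116 FPKM in *shControl* cells. The spread at equal level was not tested. By more than 1.5-fold only *Rpl22l1* differed, beside 15.2% of all genes, and none of the 79 differed by more than 2-fold, beside 5.32% of all genes. By more than 4-fold, the threshold of the study's methods, 0.886% of all genes differed and none of the 79.

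**Figure D2:**
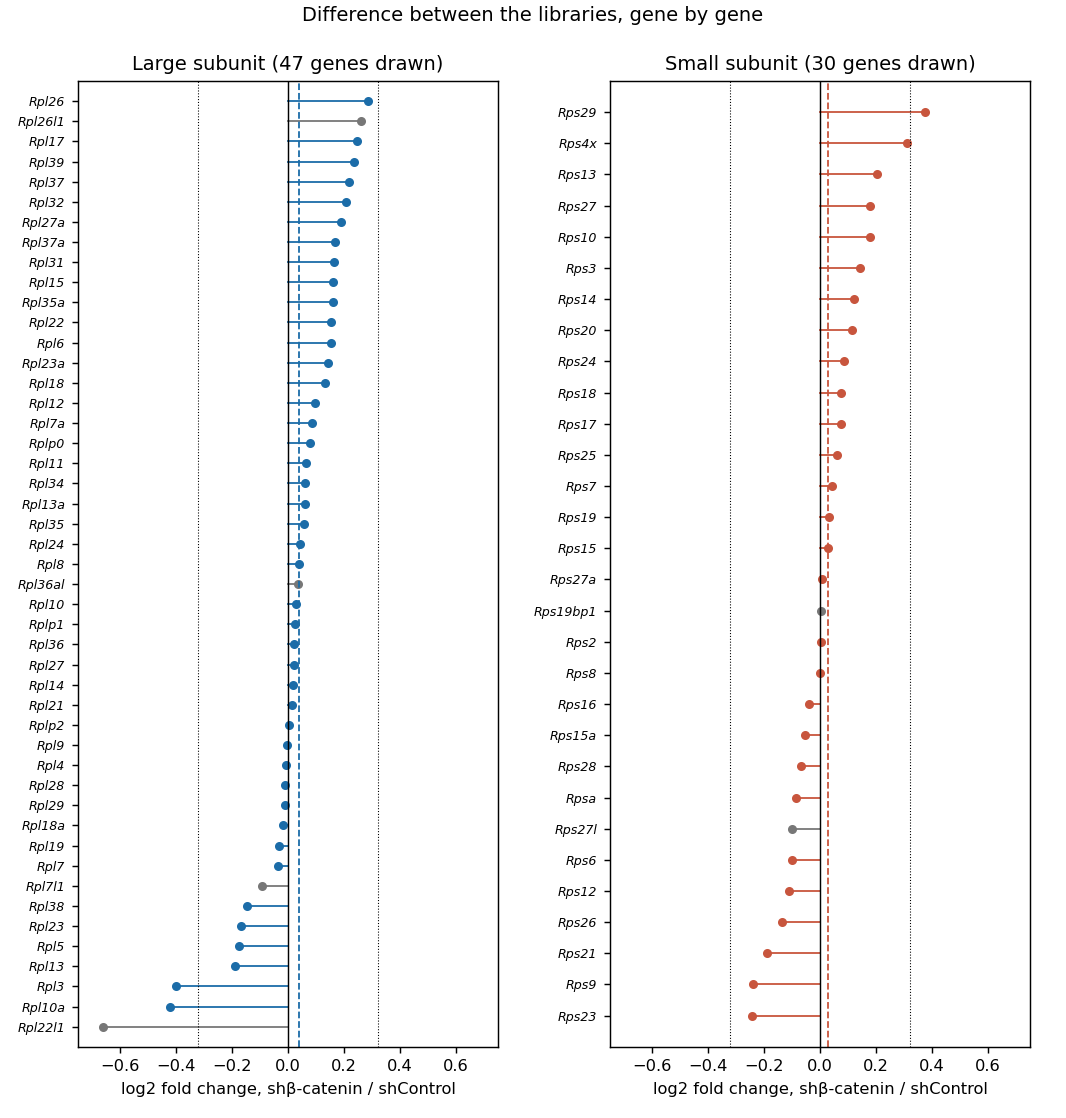
Log2 difference of ribosomal protein genes whose mean reached 1 FPKM (*shβ-catenin* over *shControl*), large subunit left and small subunit right, with paralogs and *Rps19bp1* in grey. Dashed lines mark the subunit medians of 0.04 and 0.03, dotted lines mark 0.32 in either direction, and *Rpl22l1*, *Rpl10a*, *Rpl3* and *Rps29* lie beyond them among the 47 and 30 genes drawn, the medians being those of all 47 and 32.

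The large and the small subunit differed from each other by little. Of the 47 large-subunit genes, 32 were higher in *shβ-catenin* cells and 15 lower, beside 48.7% and 51.3% of all genes. Their median was 0.04 and their interquartile range −0.01 to 0.15. Of the 32 small-subunit genes, 20 were higher and 12 lower, beside the same shares of all genes. Their median was 0.03 and their interquartile range −0.07 to 0.13. The medians were 0.01 apart on the log2 scale. The summed FPKM of the large subunit was 1.15 times that of the small subunit in both libraries. Per gene the order was the other way, since the median core gene of the large subunit stood at 0.823 times that of the small subunit in *shβ-catenin* cells and 0.848 times in *shControl* cells. The 3 genes lower by more than 0.32 belonged to the large subunit and the 2 higher by more than that to the small subunit, which is too few to compare the subunits.

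*Rps29*, a zinc-binding protein of the head of the small subunit and a Diamond-Blackfan gene, had the largest upward difference of the core genes. It was listed at 1721 FPKM in *shβ-catenin* cells and 1328 FPKM in *shControl* cells, a log2 difference of 0.37. *Rps4x*, a protein of the body, was at 982 FPKM in *shβ-catenin* cells and 792 FPKM in *shControl* cells (0.31). Both stood above every large-subunit gene of the filter in log2 difference. *Rps13*, which forms a bridge to the large subunit, was at 773 FPKM in *shβ-catenin* cells and 672 FPKM in *shControl* cells (0.20).

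At the other end of the small subunit was *Rps23*, a protein of the decoding centre, at 1346 FPKM in *shβ-catenin* cells and 1593 FPKM in *shControl* cells, a log2 difference of −0.24. *Rps9*, which helps to shape the mRNA entry, was at 636 FPKM in *shβ-catenin* cells and 752 FPKM in *shControl* cells (−0.24). *Rps21* was at 1160 FPKM in *shβ-catenin* cells and 1322 FPKM in *shControl* cells (−0.19). *Rps26*, which contacts the mRNA upstream of the codon being read, was at 1592 FPKM in *shβ-catenin* cells and 1751 FPKM in *shControl* cells (−0.14), and *Rps12* differed by −0.11. No gene of the small subunit was therefore lower by as much as *Rps29* was higher. The 14 head proteins among the genes and *Rack1*, a scaffold for kinases on the head that the name rule leaves out, had a median of 0.06 with 11 of 15 higher. The 16 other core genes were evenly split, 8 higher and 8 lower, with a median of 0.00068. Beside these counts, 62.5% of the small-subunit genes and 48.7% of all genes were higher. Both groups are small, and the difference between them was not tested.

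In the large subunit the largest upward difference was that of *Rpl26* (0.29), and its values are given above. *Rpl17*, which lines the exit tunnel, was at 1325 FPKM in *shβ-catenin* cells and 1116 FPKM in *shControl* cells (0.25). *Rpl39*, a very short protein within the tunnel, was at 1072 FPKM in *shβ-catenin* cells and 910 FPKM in *shControl* cells (0.24). *Rpl37*, a zinc-binding protein, was at 1567 FPKM in *shβ-catenin* cells and 1349 FPKM in *shControl* cells (0.22). *Rpl17*, *Rpl26* and *Rpl39* belong to a group of 7 proteins around the tunnel exit, with *Rpl19*, *Rpl23a*, *Rpl31* and *Rpl35*. Of these 7, 6 were higher in *shβ-catenin* cells, beside 68.1% of the large-subunit genes and 48.7% of all genes. Their median was 0.16, and *Rpl19* differed by −0.03. The group includes the genes named first for their large upward differences, so its median is no independent evidence. The summed level of the 7 was 9583 FPKM in *shβ-catenin* cells and 8501 FPKM in *shControl* cells. The 36 other core genes of the large subunit had a median of 0.03, with 24 higher, beside 48.7% of all genes.

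Among core genes the largest downward differences were those of *Rpl10a*, the protein of the L1 stalk through which spent tRNA leaves, and *Rpl3*, which reaches close to the centre where peptide bonds form. *Rpl10a* was listed at 516 FPKM in *shβ-catenin* cells and 690 FPKM in *shControl* cells, a log2 difference of −0.42. *Rpl3* was listed at 482 FPKM in *shβ-catenin* cells and 637 FPKM in *shControl* cells, a log2 difference of −0.40. They were the only core genes lower by more than 0.32. *Rpl13* was at 723 FPKM in *shβ-catenin* cells and 826 FPKM in *shControl* cells (−0.19).

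The 5S ribonucleoprotein is the assembly unit of the large subunit that can also bind Mdm2, the ligase of p53. Its proteins differed in sign. *Rpl5* was at 723 FPKM in *shβ-catenin* cells and 815 FPKM in *shControl* cells (−0.17), and *Rpl11* was at 1360 FPKM in *shβ-catenin* cells and 1301 FPKM in *shControl* cells (0.06). The P stalk, which recruits the elongation factors, was nearly level. *Rplp0*, its base, was at 1730 FPKM in *shβ-catenin* cells and 1638 FPKM in *shControl* cells. *Rplp1* was at 1773 FPKM in *shβ-catenin* cells and 1744 FPKM in *shControl* cells, and *Rplp2* at 1364 FPKM in *shβ-catenin* cells and 1360 FPKM in *shControl* cells. *Rpl12*, which anchors the stalk, was at 1324 FPKM in *shβ-catenin* cells and 1240 FPKM in *shControl* cells. All 4 genes of the stalk were higher in *shβ-catenin* cells, beside 65.8% of the 79 ribosomal protein genes and 48.7% of all genes. Their median was only 0.05, and 4 genes are too few to set the stalk apart. Of 19 ribosomal protein genes mutated in Diamond-Blackfan anaemia, a failure of red cell formation, 15 (78.9%) were higher, beside 65.8% of the 79 ribosomal protein genes and 48.7% of all genes, with a median of 0.07.

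The paralogs ranged far more widely in level than the core genes. Paralogs are additional copies that can replace a core protein or act apart from ribosomes, some of them in single tissues. Of the 7, *Rpl10l*, which serves male germ cells in mice, was listed at 0 in both libraries. *Rpl3l*, a paralog of heart and skeletal muscle, was at 0.695 FPKM in *shβ-catenin* cells and 0.473 FPKM in *shControl* cells, under the filter. The ratio of these values fits no fewer than 11 fragments in *shβ-catenin* cells and 9 in *shControl* cells, given that the *shControl* library held about 1.20 times the fragments, within a tolerance of 0.02% and in a search up to 60 fragments in all. At these numbers the exact 95% interval of the ratio is 0.554 to 4.01, counting error only, and thus includes 1. Larger numbers in the same proportion would give the same ratio and a narrower interval.

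*Rpl22l1* was the ribosomal protein gene with the largest difference among the 79 that passed the filter. Its mRNA was listed at 227 FPKM in *shβ-catenin* cells and 359 FPKM in *shControl* cells, a 1.58-fold lower level and a log2 difference of −0.66. It was the more abundant of the pair in both libraries, since its partner *Rpl22* was at 164 FPKM in *shβ-catenin* cells and 147 FPKM in *shControl* cells (0.15). The ratio of *Rpl22l1* to *Rpl22* was 1.39 in *shβ-catenin* cells and 2.44 in *shControl* cells. Of the pair's summed FPKM, *Rpl22l1* held 58.1% in *shβ-catenin* cells and 70.9% in *shControl* cells, and the sum itself was 390 FPKM in *shβ-catenin* cells and 506 FPKM in *shControl* cells. *Rpl22*, the scarcest core mRNA under the name rule, was the one core gene of the pairs examined whose paralog outweighed it, apart from *Rpl36a*.

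**Figure D3:**
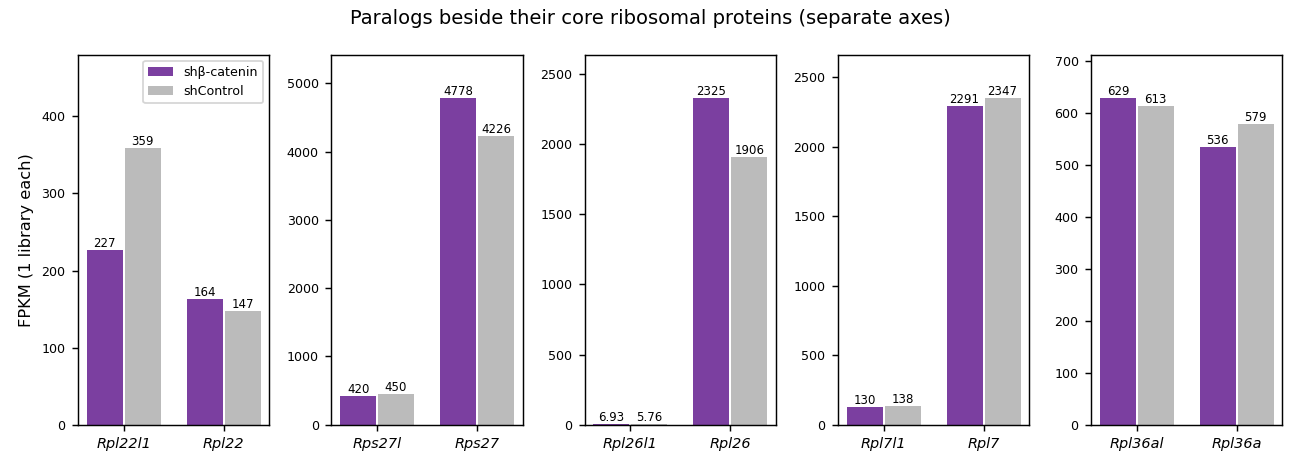
FPKM of 5 paralogs and their core partners, *shβ-catenin* (purple, left bar) and *shControl* (grey, right bar), 1 library each, with a separate vertical axis from 0 for each pair. *Rpl22l1* stands at 227 against 359 FPKM while *Rpl22* stands at 164 against 147 FPKM. The other paralogs differ by at most 0.26 on the log2 scale, the value of *Rpl26l1* at 6.93 against 5.76 FPKM.

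In the other pairs shown the levels differed less. *Rps27l*, a target gene of p53 in human and mouse cells, was at 420 FPKM in *shβ-catenin* cells and 450 FPKM in *shControl* cells (−0.10), and its partner *Rps27* was 11.4-fold more abundant in *shβ-catenin* cells and 9.39-fold in *shControl* cells. *Rpl7l1* was at 130 FPKM in *shβ-catenin* cells and 138 FPKM in *shControl* cells (−0.09), and *Rpl7* was 17.7-fold more abundant in *shβ-catenin* cells and 17.0-fold in *shControl* cells. *Rpl26l1* was at 6.93 FPKM in *shβ-catenin* cells and 5.76 FPKM in *shControl* cells (0.26), and *Rpl26* was 336-fold more abundant in *shβ-catenin* cells and 331-fold in *shControl* cells. The *Rpl26l1* ratio equals the relative depth of 1.20, which fits equal fragment numbers in both libraries. The smallest such fit, 1 fragment in each, is not a realistic number at this level. *Rpl3l*, at under 1 FPKM, already fits no fewer than 11 fragments in *shβ-catenin* cells and 9 in *shControl* cells. The actual number is unknown, so no interval of the ratio is given. The 5 paralogs that passed the filter were divided, with 2 higher and 3 lower, beside 48.7% and 51.3% of all genes. *Rpl36al* was at 629 FPKM in *shβ-catenin* cells and 613 FPKM in *shControl* cells (0.04). *Rpl36a* itself is entered under a locus number and was found by its RefSeq gene ID, at 536 FPKM in *shβ-catenin* cells and 579 FPKM in *shControl* cells. Reads that fit both copies of a pair may have been counted for either, since the treatment of such reads is not given in the sources used here.

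The name rule leaves out some proteins of the ribosome. *Fau*, which encodes a ribosomal protein fused to a ubiquitin-like protein, was at 1085 FPKM in *shβ-catenin* cells and 1008 FPKM in *shControl* cells (0.11). *Rack1* was at 780 FPKM in *shβ-catenin* cells and 857 FPKM in *shControl* cells (−0.14). These levels fell in the band of the core genes. Found by gene ID after the data were seen, *Rps3a* was at 849 FPKM in *shβ-catenin* cells and 864 FPKM in *shControl* cells (−0.03). The entry of that kind for *Rpl30* was at 1.61 FPKM in *shβ-catenin* cells and 1.92 FPKM in *shControl* cells, far below every core gene, and whether it is the expressed copy of *Rpl30* was not settled. *Rps19bp1* was at 56.9 FPKM in *shβ-catenin* cells and 56.7 FPKM in *shControl* cells, also well below them. *Rpl41* was not analysed here.

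The genes that make ribosomes and start translation lay lower than the ribosomal proteins themselves. Of 45 genes of ribosome biogenesis that passed the filter, 34 were lower in *shβ-catenin* cells, beside 51.3% of all genes, with a median of −0.13. *Nhp2* and *Gar1*, which belong to the complexes that turn uridine into pseudouridine in ribosomal RNA, differed by −0.74 and −0.55. *Nhp2* was at 32.2 FPKM in *shβ-catenin* cells and 54.1 FPKM in *shControl* cells, and *Gar1* at 13.1 FPKM in *shβ-catenin* cells and 19.3 FPKM in *shControl* cells. *Ebna1bp2*, a nucleolar assembly factor of the large subunit, was at 28.5 FPKM in *shβ-catenin* cells and 43.7 FPKM in *shControl* cells (−0.62). RNA polymerase I, which transcribes the large ribosomal RNAs, was more mixed. Of its 13 subunits and factors, 8 were lower, beside 51.3% of all genes, with a median of −0.07. *Znrd1* and *Polr1b* both differed by −0.31 and *Taf1c* by 0.28.

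Of 30 initiation factors, 27 were lower in *shβ-catenin* cells, beside 51.3% of all genes, with a median of −0.12. *Eif4g2*, a scaffold for cap-independent initiation, was at 156 FPKM in *shβ-catenin* cells and 265 FPKM in *shControl* cells (−0.76). *Eif1ax*, which helps to scan for the start codon, was at 29.4 FPKM in *shβ-catenin* cells and 45.5 FPKM in *shControl* cells (−0.63). *Eif4b*, a helper of the helicase eIF4A and itself a TOP mRNA, was at 92.5 FPKM in *shβ-catenin* cells and 124 FPKM in *shControl* cells (−0.43). The direction was shared within complexes, since 10 of 11 Eif3 subunits and 5 of 5 Eif2b subunits were lower. The sizes were small, with medians of −0.13 and −0.12, and 4 of the 30 factors differed by more than 0.32, beside 35.7% of all genes.

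Elongation and release factors were closer to the ribosomal proteins in median, at 0.07. Of 12, 7 (58.3%) were higher in *shβ-catenin* cells, beside 65.8% of the ribosomal protein genes and 48.7% of all genes. With 12 genes these shares cannot be told apart. *Eef1a1*, *Eef1b2*, *Eef1d*, *Eef1g* and *Eef2* are also TOP mRNAs, and of these only *Eef1b2* was lower (−0.08). Of the rest, *Eif5a*, *Eef2k*, *Abce1* and *Gspt1* were lower, and *Etf1*, *Eif5a2* and *Eef1a2* higher. The median of the list thus depends on its overlap with the TOP mRNAs. *Eef1a1*, which brings aminoacyl-tRNA to the ribosome, was at 6573 FPKM in *shβ-catenin* cells and 5471 FPKM in *shControl* cells (0.26), a gene named here after its value was seen. Its tissue-restricted copy *Eef1a2* was at 17.9 FPKM in *shβ-catenin* cells and 12.1 FPKM in *shControl* cells (0.56). *Eif5a*, which frees stalled ribosomes, was at 379 FPKM in *shβ-catenin* cells and 483 FPKM in *shControl* cells (−0.35), and *Eef2k*, the kinase that inhibits eEF2, differed by −0.32.

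Other TOP mRNAs, which share the regulated start of the ribosomal protein mRNAs and overlap the lists above, were divided as well. Of 18, 10 were higher in *shβ-catenin* cells, beside 48.7% of all genes. Their median was 0.04, the same to 2 decimals as that of the ribosomal proteins. They spread more widely. *Nap1l1*, a histone chaperone, was at 199 FPKM in *shβ-catenin* cells and 131 FPKM in *shControl* cells (0.60). *Tpt1*, the translationally controlled tumour protein, was at 2329 FPKM in *shβ-catenin* cells and 1736 FPKM in *shControl* cells (0.42). Of the mTOR and LARP1 genes that act on TOP mRNAs, 12 of 13 passed the filter. Of these 12, 7 were higher, beside 48.7% of all genes, and the median was 0.02. The list pools activators with repressors, so its count and median give no direction for the pathway. *Tsc1* and *Tsc2* differed by 0.32 and 0.15. *Rptor*, the substrate-binding subunit of mTOR complex 1, was at 2.57 FPKM in *shβ-catenin* cells and 3.53 FPKM in *shControl* cells (−0.44). *Rheb*, its activator, was at 55.1 FPKM in *shβ-catenin* cells and 73.2 FPKM in *shControl* cells (−0.41), and *Eif4ebp1*, a repressor of cap-dependent initiation, differed by −0.37.

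**Figure D4:**
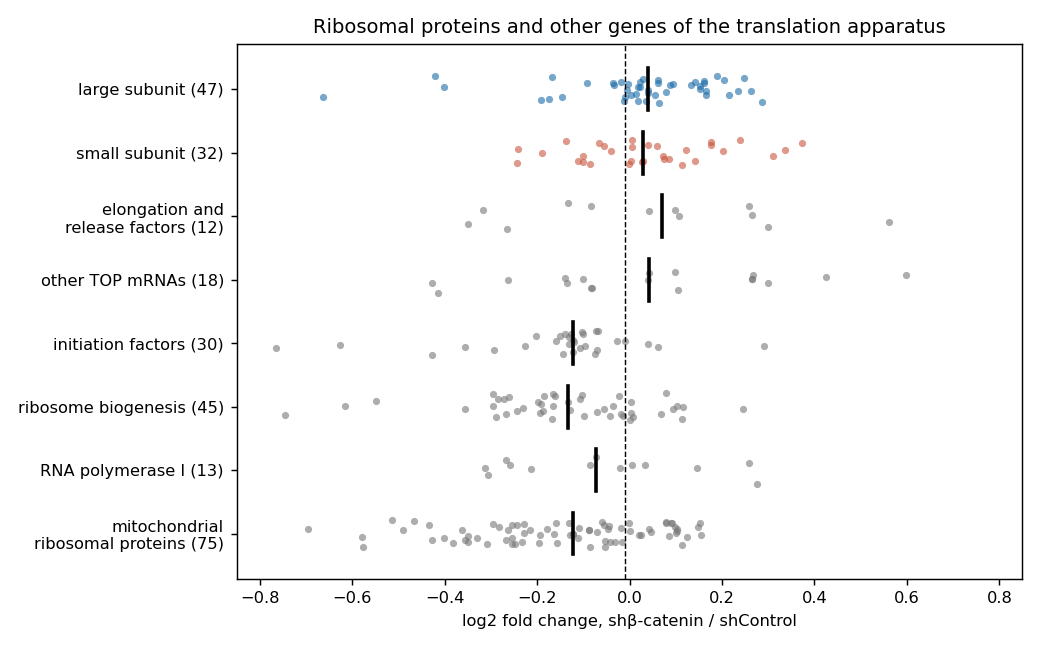
Log2 difference (*shβ-catenin* over *shControl*) of single genes (points) and the median (bar) of each list, with the number of genes in brackets and a dashed line at the median of all genes, −0.01. The medians of the large subunit (0.04), the small subunit (0.03), the elongation factors (0.07) and other TOP mRNAs (0.04) lie right of it, and those of the initiation factors (−0.12), ribosome biogenesis (−0.13), RNA polymerase I (−0.07) and mitochondrial ribosomal proteins (−0.12) left of it.

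The proteins of the mitochondrial ribosome, a separate machine that makes only the products of the mitochondrial genome, differed in direction from those of the cytosolic ribosome. Of 75, 56 (74.7%) were lower in *shβ-catenin* cells, beside 51.3% of all genes and 34.2% of the cytosolic ribosomal proteins, with a median of −0.12. *Mrpl12* was at 27.1 FPKM in *shβ-catenin* cells and 44.0 FPKM in *shControl* cells (−0.70). *Mrpl39* was at 11.9 FPKM in *shβ-catenin* cells and 17.8 FPKM in *shControl* cells (−0.58), and *Mrpl18* at 34.1 FPKM in *shβ-catenin* cells and 50.9 FPKM in *shControl* cells (−0.58). Their mRNAs were far scarcer, with 0.605% of the FPKM sum in *shβ-catenin* cells and 0.648% in *shControl* cells. No test of the difference between the 2 kinds of ribosome was possible with these libraries. The Rps6k kinases, which phosphorylate targets that include Rps6, were left out by the rule. Of 7 that passed the filter, 5 were lower, beside 51.3% of all genes, with a median of −0.15. *Rps6ka2* was at 18.7 FPKM in *shβ-catenin* cells and 28.8 FPKM in *shControl* cells (−0.62), *Rps6ka3* differed by −0.36 and *Rps6kb1*, the mTOR-controlled S6 kinase, by −0.21.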

How the data were processed

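The deposited values are FPKM per gene for 1 *shβ-catenin* and 1 *shControl* library. The authors sequenced stranded mRNA libraries as 75 bp paired ends. The submitters' processing notes name TopHat2 2.0.13, Bowtie2 2.2.3, SAMtools 0.1.19 and Cufflinks 2.2.1, and the last of these gave the FPKM. The gene annotation, the depth and the treatment of reads with several matches are not given in the sources used here. FPKM sums were 591905 (*shβ-catenin*) and 609786 (*shControl*).

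FPKM were used as deposited, with a pseudocount of 0.1 and a minimum mean of 1 FPKM. Members and lists were chosen with earlier results of these data known. Genes named were the 5 most abundant and the 5 highest and lowest log2 differences of each subunit, all paralogs, members under the filter, the P stalk, the 5S proteins, and the 3 largest differences of each list. Some genes under this rule are not reported here but enter all counts and medians. Further members of a group, *Eef1a1*, the core proteins outside the rule and all entries found by gene ID were added after their values were seen. The relative depth of 1.20 is the modal ratio of 5239 genes above 0 and below 1 FPKM in each library (847 genes within 0.05% of it). RefSeq names came from another assembly, so no coordinates are given. The scripts, in Python 3.11.15 with numpy 2.4.6, pandas 2.3.3 and scipy 1.17.1, were tested on simulated data.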

Additional observations from a re-analysis of the deposited data

How the results depend on the processing

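Alternatives were pseudocounts of 0.01 and 1, a minimum mean of 5 FPKM or none, scaling to the upper quartile or by the median ratio, core proteins only, single entries only, other bases of the share, and, added after the data were seen, equal FPKM sums and 3 genes matched by ID. Of 123 values, 122 kept their direction within 0.1 on the log2 scale (counts within 1.5-fold), and 1 reversed. This tolerance is wider than the medians of the ribosomal proteins themselves, so for them only a change of sign could show. Some alternatives could change little. Keeping single entries only left every value as it was, and a scaling moves both subunits by the same amount. The log2 ratio of large to small subunit between the libraries was 0.0066 from sums and −0.065 from medians of FPKM. Median ratio, upper quartile and equal sums add 0.01, 0.03 and 0.04 to every log2 difference. The median of the ribosomal proteins ran over 0.03 to 0.08, and the lower genes numbered 18 to 30. With equal sums 39 of 47 large-subunit and 22 of 32 small-subunit genes were higher, beside 53.9% of all genes. Initiation factors had 25 to 27 of 30 lower, ribosome biogenesis 29 to 34 of 45, and mitochondrial ribosomal proteins 51 to 56 of 75. No paired analysis was possible because there is 1 library per group, and none could be left out. Counts of fragments are unknown, so the error of these small differences could not be estimated.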

Other observations

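The aminoacyl-tRNA synthetases of the cytosol, which load tRNAs with their amino acids, were counted after their values were seen. All 17 entries with a 1-letter amino acid code before ars were lower in *shβ-catenin* cells as deposited, beside 51.3% of all genes. Their median log2 difference was −0.37. With libraries scaled to equal FPKM sums, 15 of 17 were lower, while 53.9% of all genes were higher. *Yars* was at 36.9 FPKM in *shβ-catenin* cells and 62.1 FPKM in *shControl* cells (−0.75). *Iars* was at 50.8 FPKM in *shβ-catenin* cells and 78.3 FPKM in *shControl* cells (−0.62), and *Aars* at 127 FPKM in *shβ-catenin* cells and 182 FPKM in *shControl* cells (−0.52). *Hars* was nearly level, at 52.9 FPKM in *shβ-catenin* cells and 53.2 FPKM in *shControl* cells.

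Of 4 loci that the study's tables name as ribosomal protein pseudogenes, 3 were listed near or under 1 FPKM. The entry of the other, a pseudogene of *Rpl17*, was listed at 0 in both libraries, and whether it is the feature behind the study's table was not settled. A pseudogene of *Rpl9* was at 0.195 FPKM in *shβ-catenin* cells and 1.14 FPKM in *shControl* cells, and *Rpl9* itself at 1227 FPKM in *shβ-catenin* cells and 1229 FPKM in *shControl* cells. A pseudogene of *Rps2* was at 1.10 FPKM in *shβ-catenin* cells and 0.195 FPKM in *shControl* cells, and *Rps2* itself at 3641 FPKM in *shβ-catenin* cells and 3633 FPKM in *shControl* cells. A pseudogene of *Rpsa* was at 0.133 FPKM in *shβ-catenin* cells and 0.552 FPKM in *shControl* cells, and *Rpsa* itself at 1559 FPKM in *shβ-catenin* cells and 1655 FPKM in *shControl* cells. The study chose its listed loci on these libraries, so their differences are no independent evidence.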
